A study of Arabidopsis thaliana with 6 samples.

Results

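The 8 genes described here encode nucleolar proteins that build ribosomes: Pescadillo (AT5G14520), BOP1 (AT2G40360), BRX1 (AT3G15460), RPF2 (AT3G23620) and an L1-like protein (AT3G58660), taken as factors of the large subunit, BMS1 (AT1G06720), a factor of the small subunit, and NOP58 (AT3G05060) and an L7Ae-like protein (AT4G12600), taken as proteins of small nucleolar ribonucleoprotein particles (snoRNPs). They were chosen by their locus identifiers from genes already known to differ on these same arrays, with higher values at normal than at low CO2 in light. That comparison is therefore given as a description and no test is drawn from it. Each locus had 1 probe set whose annotation names that locus alone, so 8 of the 22746 tested probe sets carry the values. The gene table used for names lists Pescadillo by name. The other 7 names are those given with the loci, and the functions stated below are those of the homologous proteins in yeast or mammals.

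The plants were 5 to 6 weeks old and carried the pgm mutation in Arabidopsis thaliana Col-0, and whole rosettes were sampled. The mutant lacks plastidic phosphoglucomutase and makes almost no starch. Every group carried this mutation and no wild type was analysed here, so the values describe starchless plants alone. The 3 groups had been kept for 4 hours at low CO2 in prolonged darkness, at low CO2 in light, or at normal CO2 in light. Each group had 2 arrays, replicates A and B, and each RNA came from pooled rosettes of which the labels give 15 as ground together. The series text calls the replicates biological; p-values measure the spread between these samples.

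Ribosomes are assembled in the nucleolus. RNA polymerase I makes a long precursor RNA there, snoRNPs guide its methylation and pseudouridylation, and a large set of assembly factors folds and cuts it while ribosomal proteins bind. In plants, as in yeast, genes for these factors tend to be expressed together and to be more active in growing, sugar-supplied tissue.

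Replicates of one group correlated with r = 0.971 to 0.984 across probe sets on the log2 scale. The arrays had been scaled alike, with a 2% trimmed mean of 100.01 on each. The bacterial spike-in control bioC was between 66.3 and 73.8 in the 3 hybridisations labelled A, and between 116.2 and 157.3 in those labelled B. Values are therefore also given within each letter. The photosynthesis genes PSAE-1, PSAN, SBPASE and LHCB4.2, chosen afterwards as a check of green tissue, lay at or above the 98.7th percentile of the tested probe sets on all arrays.

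All 8 genes were brightest on both arrays of normal CO2 in light, and no array of either low CO2 treatment reached those levels. The fold between group means of normal and low CO2 in light ran from 3.35 for NOP58 to 5.30 for BRX1. At low CO2, 7 of the 8 had a lower mean in light than in darkness, and 0 of the 8 passed the test. Over all tested probe sets 10794 of 22746 had a negative log2 difference in that step. The genes were chosen for their CO2 difference, so nothing is read from its size beside that of light. Each gene is described in turn, first the large-subunit factors.

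Pescadillo and BOP1 belong, with WDR12, to a complex that mammals and yeast need to process the precursor RNA of the large subunit. Pescadillo (AT5G14520) read 136.1 and 139.5 in darkness, 77.6 and 73.8 in light with low CO2, then 246.6 and 293.5 in light with normal CO2, for replicates A and B in that order. Its 3 groups did not overlap, with low CO2 in light the lowest. The group means were 137.8 ± 2.40, 75.7 ± 2.69 and 270.1 ± 33.2 (SD, n = 2 each).

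The mean of Pescadillo was 3.57 times as high at normal as at low CO2 in light, a log2 difference of 1.74 ± 0.14 (SE). From darkness to light at low CO2 its log2 difference was -0.81 ± 0.14 (95% interval -1.15 to -0.46, adjusted p = 0.0613, limma), at -0.76 for A and -0.86 for B. Among the 8 genes this was the largest difference between these groups. It did not pass the threshold of 0.05 over all probe sets, and it did (adjusted p = 0.0430) where probe sets with a mean intensity under 20 were left out before the fit. Normal CO2 in light stood only 1.96-fold above darkness, the smallest such fold among the 8.

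BOP1 (AT2G40360), the partner of Pescadillo, read 128.9 and 144.5 in darkness, 114.8 and 66.5 in light with low CO2, then 308 and 475.5 in light with normal CO2. The groups did not overlap, but the arrays of one group lay far apart in light. At low CO2 in light the mean was 90.7 ± 34.2 (SD, n = 2) and at normal CO2 it was 391.8 ± 118.4 (SD, n = 2).

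BOP1 thus differed 2.68-fold between normal and low CO2 in light within replicate A and 7.15-fold within replicate B, the widest disagreement in log2 difference (1.37 and 2.71) among the 8. The log2 difference was 2.04 ± 0.30 (SE), the highest of the 8, with RPF2 next at 2.03. That rank depends on the scale: with a pseudocount of 1 BOP1 had 2.12 and BRX1 2.38. From darkness to light at low CO2 the log2 difference of BOP1 was -0.60 ± 0.30 (adjusted p = 0.393), made up of -0.16 in A and -1.04 in B. It was -0.24 when low CO2 in light replicate B was left out.

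BRX1 and RPF2 share the Brix domain. In yeast both act on early precursors of the large subunit, and Rpf2 helps to bring in the particle that holds 5S RNA. RPF2 (AT3G23620) read 77.9 and 74.1 in darkness, 57.6 and 49.1 in light with low CO2, then 205.5 and 281 in light with normal CO2. Its groups did not overlap, and the order was that of Pescadillo.

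The means of RPF2 were 76 ± 2.69, 53.4 ± 6.01 and 243.3 ± 53.4 (SD, n = 2 each). The fold between normal and low CO2 in light was 4.56, a log2 difference of 2.03 ± 0.19 (SE). In the step from darkness to light at low CO2 the log2 difference was -0.46 ± 0.19 (95% interval -0.92 to 0.00, adjusted p = 0.305).

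BRX1 (AT3G15460) was the dimmest of the 8, with 21.5 and 8.6 in darkness, 20.7 and 11 in light with low CO2, then 70.7 and 97.3 in light with normal CO2. The low CO2 groups overlapped fully, and the replicate letter separated their arrays more than light did. Its log2 difference between normal and low CO2 in light was 2.00 ± 0.37 (SE), the largest error of the 8. Because its low values lie near the pseudocount of 7.3, that size depends on the scale: it was 2.38 with a pseudocount of 1 and 1.28 with one of 32. Light at low CO2 gave 0.08 ± 0.37 (adjusted p = 0.948), the single positive value among the 8, and it was -0.05 after quantile normalization, -0.23 without low CO2 in light replicate A and -0.35 without darkness replicate B.

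The L1-like gene (AT3G58660) encodes a protein of the family of ribosomal protein L1. It read 56.2 and 50.2 in darkness, 56.1 and 30.2 in light with low CO2, then 205 and 168.5 in light with normal CO2. The groups of low CO2 overlapped, since replicate A of low CO2 in light lay level with replicate A of darkness. The log2 difference between normal and low CO2 in light was 1.99 ± 0.27 (SE), 1.74 within A and 2.23 within B. The light step gave -0.31 ± 0.27 (adjusted p = 0.649), with 0.00 in A and -0.62 in B, and 0.07 without low CO2 in light replicate B.

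**Figure D1:**
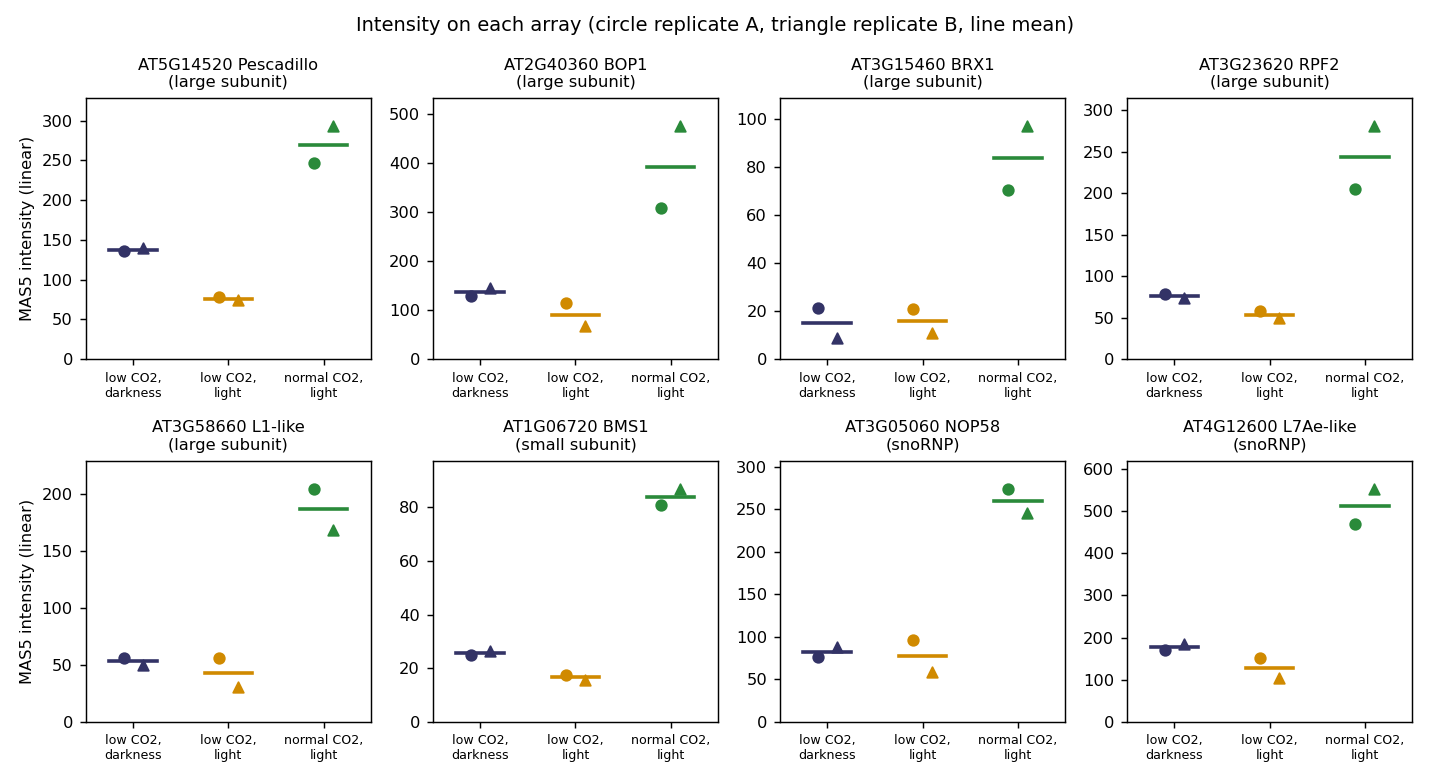
MAS5 intensity (linear scale from 0) of each of the 8 genes by treatment, with a circle for replicate A, a triangle for replicate B and a line at the group mean. In every panel both points of normal CO2 in light lie above all 4 points of low CO2, and Pescadillo shows the clearest gap between darkness and light at low CO2, 137.8 against 75.7.

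BMS1 is a GTPase that, in yeast, acts in the processome that frees the small subunit's RNA. BMS1 (AT1G06720) read 25 and 26.4 in darkness, 17.5 and 15.7 in light with low CO2, then 80.7 and 87 in light with normal CO2. Its groups did not overlap and its replicates lay close together in all 3 groups. The log2 difference between normal and low CO2 in light was 1.93 ± 0.18 (SE), with 1.83 in A and 2.04 in B, the best match between letters among the 8 genes. The light step gave -0.47 ± 0.18 (95% interval -0.91 to -0.02, unadjusted p = 0.0432 and adjusted p = 0.282 by limma).

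NOP58 is a core protein of the box C/D snoRNPs, which methylate precursor RNA. NOP58 (AT3G05060) read 75.8 and 88.5 in darkness, 96.5 and 59 in light with low CO2, then 274.6 and 245.8 in light with normal CO2. Both arrays of darkness lay between the 2 arrays of low CO2 in light, so these groups overlapped. Its log2 difference between normal and low CO2 in light was 1.69 ± 0.23 (SE), the smallest of the 8. The light step gave -0.11 ± 0.23 (adjusted p = 0.882), with 0.32 in A and -0.53 in B. It was 0.22 when low CO2 in light replicate B was left out.

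The L7Ae-like gene (AT4G12600) encodes a protein of a family whose members bind kinked RNA in snoRNPs and in the spliceosome. It was the brightest of the 8 probe sets, with 171.5 and 183.6 in darkness, 150.6 and 103.5 in light with low CO2, then 468.8 and 553.8 in light with normal CO2. Its 3 groups did not overlap. The log2 difference between normal and low CO2 in light was 1.97 ± 0.20 (SE), and that of the light step was -0.48 ± 0.20 (adjusted p = 0.303), with -0.18 in A and -0.78 in B.

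In the light step, then, 5 of the 8 genes (Pescadillo, BOP1, RPF2, BMS1 and the L7Ae-like gene) had both arrays of low CO2 in light below both of darkness. Over all tested probe sets 22.5% did, and 30.2% of those with a mean intensity of at least 20. The median log2 difference of the 8 was -0.46, against 0.02 over all tested probe sets, and it came to -0.17 within letter A and -0.58 within B. None of the 8 passed the threshold in limma, 2 had an unadjusted p under 0.05 (Pescadillo and BMS1), and 0.193% of all probe sets were called lower. At an unadjusted p under 0.05, 1870 of the 22746 probe sets were lower. The step shares the arrays of low CO2 in light with the comparison on which the genes were chosen, so its direction is not independent of that choice. Without low CO2 in light replicate B the median was -0.23 and 5 of the 8 values were negative, against 7 with all arrays.

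**Figure D2:**
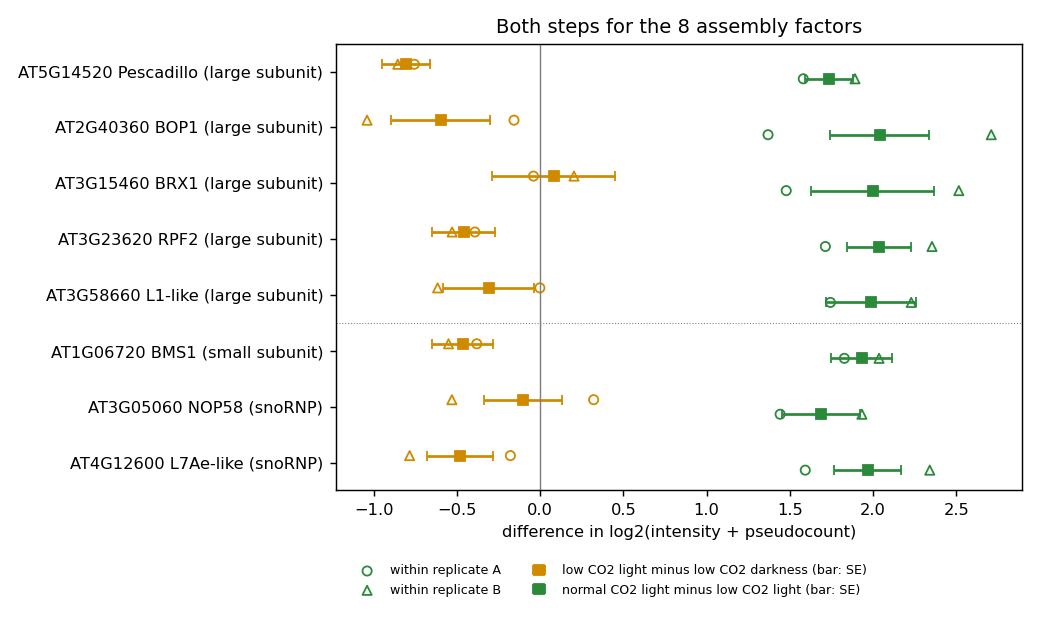
Difference in log2(intensity + 7.3) of each gene for the step from darkness to light at low CO2 and for the step from low to normal CO2 in light, as squares with SE bars, with open circles for the difference within replicate A and open triangles for replicate B. The CO2 differences run from 1.69 to 2.04 and all lie to the right of those of light, which run from -0.81 to 0.08.

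Large-subunit factors and the other 3 genes had like sizes in both steps. From low to normal CO2 in light the 5 large-subunit genes ran from 1.74 to 2.04 and the 3 others from 1.69 to 1.97, on the log2 scale. The medians differed by 0.07, and by -0.01 within A and 0.32 within B. In the light step the medians differed by 0.01, while single genes ran from -0.81 to 0.08 among the large-subunit factors and from -0.48 to -0.11 among the others. The difference between the classes was thus smaller than its spread between replicates, and in the CO2 step it was -0.02 without low CO2 in light replicate B and -0.06 without normal CO2 in light replicate B.

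Values at normal CO2 in light also exceeded those in darkness for every one of the 8, with both arrays above both. Over all tested probe sets 31.8% had this order. The same order between normal and low CO2 in light, which the choice of the genes used, held for 29.6%. Against darkness the log2 differences ran from 0.93 ± 0.14 (SE) for Pescadillo to 2.08 ± 0.37 for BRX1, with a median of 1.53, and 8 of 8 passed where 11.3% of probe sets were called higher. This comparison shares the arrays of normal CO2 with the one that chose the genes, and nothing is read from the count. In the CO2 step itself 8 of 8 were past the threshold, a count fixed by the choice, where 8.40% of all probe sets were called higher.

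**Figure D3:**
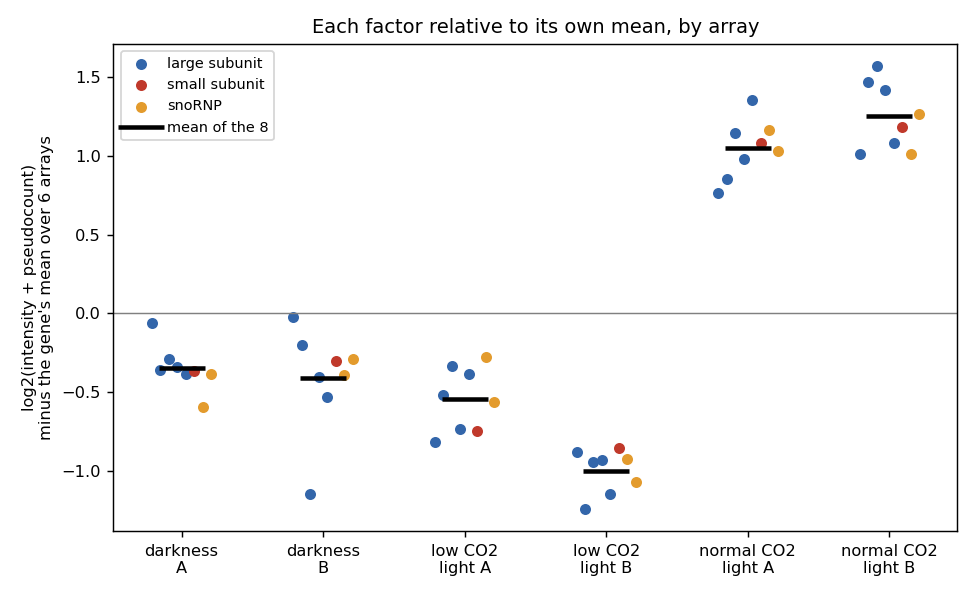
Level of each gene on each array as log2(intensity + 7.3) minus the gene's own mean over the 6 arrays, coloured by role, with a bar at the mean of the 8. The bars read -0.35 and -0.41 in darkness, -0.54 and -0.999 in light with low CO2, then 1.05 and 1.25 in light with normal CO2. The lowest point of darkness replicate B, at -1.15, is BRX1.

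The 8 genes followed one another closely. Pearson's r of each with the mean of the other 7, over 6 arrays in 3 groups, ran from 0.930 for BRX1 to 0.997 for the L7Ae-like gene, as a description, since the choice of the genes favours a like pattern. Of the 3 groups, low CO2 in light had the widest gap between replicates in the mean of the 8, -0.54 for A and -0.999 for B, while the arrays of darkness lay at -0.35 and -0.41.

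Whether the rise at normal CO2 extended beyond the chosen genes was examined on 90 other loci, listed by role as assembly factors and snoRNP proteins. Of these, 51 had a probe set that the annotation matched to 1 locus, and the rest were left out. In the CO2 step 39 of the 51 rose and 0 fell (limma, adjusted p under 0.05 over all probe sets), 76.5% against the 8.40% called higher over the array. Among probe sets with a mean intensity of at least 20 the share called higher was 12.4%. The median log2 difference of the 51 was 1.18, against -0.01 over all tested probe sets and 1.98 for the 8 genes. Within letter A it was 0.98 and within B 1.36. The count was 17 without low CO2 in light replicate B and 0 without either array of normal CO2 in light, fits in which no probe set at all passed. For the 8 genes it was 7 and 0 in the same fits. The lists were written with earlier results of these arrays known, so they are not independent evidence. In these bulk samples more RNA per cell and more cells that make it cannot be told apart.

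Among large-subunit loci 22 of 27 rose, with a median of 1.30. AT3G18600 rose by 2.17 ± 0.30 (SE, adjusted p = 0.0102, limma), from a mean of 51.7 ± 19.6 (SD, n = 2) to 255.3 ± 65.4. AT4G25730 rose by 1.92 ± 0.24 (adjusted p = 0.00906) and AT4G26600, dim at low CO2 with a mean of 9.15, by 1.80 ± 0.35 (adjusted p = 0.0228). AT1G52930 rose by 1.83 ± 0.17 (adjusted p = 0.00579). Its 3 groups were at 94.2 ± 7.21, 80 ± 4.03 and 305.7 ± 54.7 (SD, n = 2). The loci of this list with the largest p were AT5G06360 (0.51 ± 0.27, adjusted p = 0.280) and AT1G10300 (0.20 ± 0.21, adjusted p = 0.600), which stayed under an intensity of 5 on every array.

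Of the small-subunit loci 13 of 16 rose, with a median of 1.18. AT2G34357 rose by 2.45 ± 0.53 (adjusted p = 0.0318), a ratio of intensities of 3.04 within letter A and 30.05 within B. Its intensity was 4 on low CO2 in light replicate B, and when that array was left out the difference was 1.58 (adjusted p = 0.0403). Its call was lost in the fit of the 4 arrays compared (adjusted p = 0.0512) and without darkness replicate A (0.0520) or B (0.0522). AT1G63810 rose by 1.73 ± 0.32 (adjusted p = 0.0208) and AT5G14050 by 1.62 ± 0.24 (adjusted p = 0.0121). YAO (AT4G05410), a WD-repeat nucleolar protein, rose by 1.73 ± 0.20 (adjusted p = 0.00802), from 27.6 ± 6.86 to 107.1 ± 0.35 (SD, n = 2). DIM1A (AT2G47420), which dimethylates adenosines of the small subunit's RNA, was the exception in order: it read 124.8 and 122.3 in darkness, 60.9 and 104.1 in light with low CO2, then 68.6 and 77.9 in light with normal CO2. Its CO2 difference of -0.12 ± 0.25 (adjusted p = 0.816) did not pass, and both arrays of light at normal CO2 lay below both of darkness. AT5G08420 had 0.04 ± 0.17 (adjusted p = 0.923).

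Of 7 other snoRNP loci 4 rose, with a median of 1.15. They were AT5G20160 (1.79 ± 0.26, adjusted p = 0.0111), AT3G03920 (1.24 ± 0.17, adjusted p = 0.0105), AT5G08180 (1.15 ± 0.18, adjusted p = 0.0129) and AT3G12860 (1.15 ± 0.29, adjusted p = 0.0461). The call of AT3G12860 was lost in limma with a pseudocount of 1 (adjusted p = 0.0574) and in the fit of the 4 arrays compared (0.0507). It was also lost with the replicate block (0.0583). Without low CO2 in light replicate A the difference of AT3G12860 was 0.89, given as a size alone because 1 array stood for that group. AT5G20160 reached 486.6 and 725.6 at normal CO2 in light from 204.6 and 135 at low CO2. AT5G18180 had 0.03 ± 0.24 (adjusted p = 0.955) and AT5G52490, dimmer than 5 on all arrays, -0.13 ± 0.15 (adjusted p = 0.657). Of the list of nucleolin and precursor decay factors 1 of 6 loci had a matched probe set, RRP41, an exosome subunit, with 0.58 ± 0.18 (adjusted p = 0.0793).

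In the light step 0 of the 51 other loci passed in limma, 7 had an unadjusted p under 0.05, and all 7 were lower in light. Over all 22746 probe sets 237 passed in limma. At an unadjusted p under 0.05, 1870 of the 22746 were lower, and 1705 of the 14224 with a mean intensity of at least 20. Of the 51, 38 had a negative difference, beside 10794 of the 22746 and 7744 of the 14224. The median of the 51 was -0.19, or -0.09 within letter A and -0.32 within B. When low CO2 in light replicate B was left out, 32 of the 51 were negative. Both arrays of low CO2 in light lay below both of darkness for 14 of the 27 large-subunit loci (51.9%), 5 of the 16 small-subunit loci (31.3%) and 0 of the 7 snoRNP loci. The share was 22.5% over all probe sets and 30.2% among those with a mean intensity of at least 20, so the small-subunit loci lay near the latter. Whether the roles differ was not tested.

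**Figure D4:**
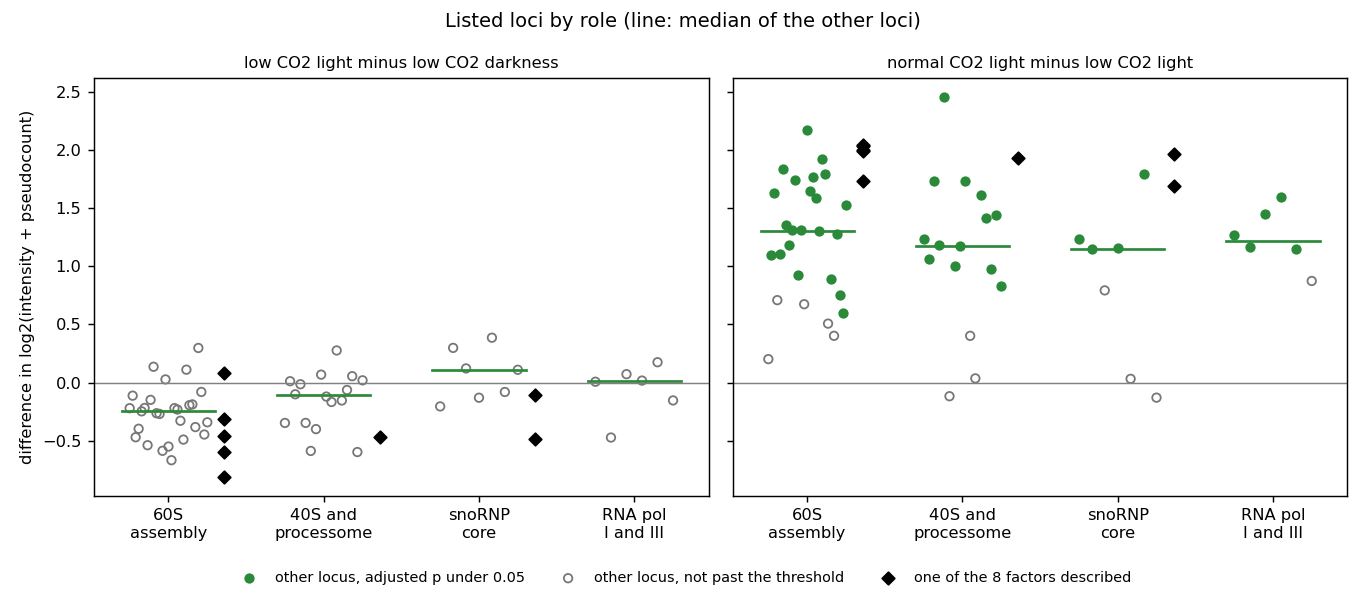
Difference in log2(intensity + 7.3) for the light step at low CO2 (left) and the CO2 step in light (right), 1 point per locus by role, filled green where the adjusted p was under 0.05, open where it was not, and with black diamonds for the 8 genes. Lines mark the medians of the other loci, which on the right are 1.30, 1.18, 1.15 and 1.22, while on the left no point is filled.

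Other quantities differed along the CO2 step. The ratio of 3 prime to 5 prime ubiquitin control signals, a measure of RNA integrity, reached 1.69 and 1.95 for the normal CO2 arrays, and between 1.38 and 1.48 on the 4 arrays of low CO2. That of GAPDH was 0.949 to 1.13 on all arrays. That of actin was 2.16 and 2.60 at normal CO2, lower than the 2.63 and 2.84 of low CO2 in light. In darkness it was 1.97 and 2.34. Of 15 markers of dividing and meristem cells 2 had a probe set matched to 1 locus. PRL, a subunit of the DNA replication helicase, rose by 1.79 ± 0.26 (adjusted p = 0.0115), and AUR1, a mitotic kinase, had 0.42 ± 0.17 (adjusted p = 0.161). Their summed intensity was 110.6 and 112.6 in darkness, 131.4 and 93.4 in light at low CO2, then 265 and 285.2 at normal CO2 in light. Neither gene was at 0 on any array. Of 5 flower markers 0 had a probe set matched to 1 locus, which does not show that the array lacks them. The part of RNA integrity and of dividing cells in the rise of the assembly factors was not tested.

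Among 5269 probe sets of other single loci with a mean intensity of at least 50, the 5 whose pattern over the 6 arrays was most like the mean of the 8 genes were AT5G55580, AT1G62740, AT3G61100, TSO1 and AT1G54770, with Pearson's r of 0.9977, 0.9974, 0.9965, 0.9965 and 0.9964. AT5G55580, listed as mTERF9, read 35.7 and 38.1 in darkness, 34.6 and 24.4 in light with low CO2, then 92.1 and 99.5 in light with normal CO2. AT1G62740, listed as Hop2, read 109.2 and 105.3, 105.3 and 84.2, and 210.7 and 244.1 in the same order. None of these 5 was on the lists of assembly factors used here, and whether any of them acts in ribosome assembly was not examined. Values of r over 0.95 were reached by 321 of the 5269 (6.09%) and by 23 of the 36 other assembly loci among them (63.9%). These are descriptions over 6 arrays in 3 groups.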

How the data were processed

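The authors deposited 1 linear intensity for each probe set, made with MAS5 per the submitters' processing notes (version, scaling target: not given in the sources used here). With 2 arrays a group, precision is limited by their number. No further scaling was applied. Of 22810 probe sets 64 are controls. Probe sets were named through the platform annotation and, by Entrez ID, the TAIR10.1 gene table, with 13484 matched to 1 locus. A listed locus without such a match was left out, whether or not the array has a probe set for it. Cross-hybridisation between related genes was not assessed.

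Intensities were transformed as log2(intensity + 7.3), 7.3 being the 20th percentile of tested values, which understates changes of dim genes. The 3 group means were estimated jointly from the 6 arrays by limma 3.58.1 (R 4.3.3) (mean-variance trend, 3 residual and 3.27 prior degrees of freedom), and p-values were adjusted by Benjamini-Hochberg over 22746 probe sets with a threshold of 0.05. Where a locus had several probe sets the brightest was used. The fit was also run on simulated data with independent noise of the fitted spread. Such data hold no deviations shared across an array, so nothing is concluded from them about these arrays. The loci and lists were chosen with earlier results of these data known; of each list up to 4 loci with the largest change and 2 with the largest p are named, with others named after their values were seen. Where the gene table gives no name, the locus is printed. Replicate letters are not stated to pair samples. Alternatives covered pseudocount, normalization, dim probe sets, spread, arrays in the fit, replicate block, choice of probe set and each array left out.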

Additional observations from a re-analysis of the deposited data

How the results depend on the processing

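The 8 assembly factors kept a positive CO2 difference under all alternatives, with the smallest value at 1.25, that of BMS1 with a pseudocount of 32. The number of them past the threshold in the CO2 step ranged from 0 to 8 when single arrays were left out. It was 7 without low CO2 in light replicate B and 0 without normal CO2 in light replicate A or B, fits in which 0 of all probe sets passed in limma (5835 and 4779 at an unadjusted p under 0.05) and in which 1 array stood for its group. For the 51 other loci the count of 39 ranged from 0 to 33 in this way, with 17 without low CO2 in light replicate B, and that of all probe sets, 3321, from 0 to 2744, with 1213 without low CO2 in light replicate B. In the light step 0 of the 8 passed, except 1 (Pescadillo) with dim probe sets left out. The 237 probe sets called in the light step became 368 with a pseudocount of 1, 145 with 32, 639 without dim probe sets, 105 without the mean-variance trend, 0 in a fit of the 4 arrays compared (3445 at unadjusted p) and 475 with the replicate block, and ranged from 0 to 99 with single arrays left out. The replicate block changed no call of the 8, with 8 called in the CO2 step, while among the named loci AT5G06360 passed with it (adjusted p = 0.0361) and AT3G12860 did not (0.0583); deviations of like letters correlated at 0.31, 0.16 and 0.02 between groups. With a common median for the arrays, calls in the CO2 step were split as 1574 higher and 1742 lower, against 1911 and 1410. The median difference between large-subunit and other members, 0.07, ranged from -0.063 to 0.29 with single arrays left out. The light step of BRX1 turned to -0.047 after quantile normalization and ranged from -0.35 to 0.51 with single arrays left out, that of the L1-like gene from -0.69 to 0.069 and that of NOP58 from -0.43 to 0.22. CO2 differences near 0 also turned: AT5G18180 and AT5G08420 had -0.041 and -0.037 with a common median, and with single arrays left out AT5G18180 ranged from -0.21 to 0.27, AT5G08420 from -0.17 to 0.24, AT2G47420 from -0.47 to 0.24, AT1G10300 from -0.0074 to 0.41 and AT5G52490 from -0.30 to 0.043. The causes were not tested. Values near the pseudocount of 7.3, as for BRX1 at low CO2 and BMS1 at low CO2 in light, limit the size of a fold.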

Other observations

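Subunits of RNA polymerases I and III, which transcribe ribosomal RNA and short non-coding RNAs, moved the same way. Of 8 listed loci 6 had a probe set matched to 1 locus. From low to normal CO2 in light 5 of the 6 rose, where 8.40% of all probe sets were called higher, and 12.4% of those with a mean intensity of at least 20. The median log2 difference of the 6 was 1.22. NRPA1, the largest subunit of RNA polymerase I, read 17 and 11.2 under low CO2 in light, then 47.4 and 67.5 under normal CO2, a rise of 1.59 ± 0.26 (SE, adjusted p = 0.0149, limma). AT3G13940 rose by 1.45 ± 0.23 (adjusted p = 0.0140), NRPA2 by 1.27 ± 0.17 (adjusted p = 0.00997), and AT1G75670 by 1.16 ± 0.23 (adjusted p = 0.0250). NRPC2 of RNA polymerase III rose by 1.15 ± 0.20 (adjusted p = 0.0186), and NRPC1 had 0.87 ± 0.24 (adjusted p = 0.0578). Without low CO2 in light replicate B the calls of NRPA1 (adjusted p = 0.0697), AT3G13940 (0.0583) and AT1G75670 (0.107) were lost. Without either array of normal CO2 in light no probe set on the array passed, these included.

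In the light step 0 of these 6 passed in limma, and 0 had an unadjusted p under 0.05. On the log2 scale NRPA1 had 0.02 and NRPA2 0.01, while AT1G75670 had -0.47 and lay lower on both arrays of light than in darkness. The 6 ran from -0.47 to 0.18, with a median of 0.01. The 8 assembly factors ran from -0.81 for Pescadillo to 0.08 for BRX1, with a median of -0.46, so the ranges overlapped. The difference between these sets of genes was not tested.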
